A study of Bos taurus with 30 samples.

Results

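The genes examined here encode the proteasome, its activators, inhibitor and assembly factors, and the ubiquitin-conjugating (E2) enzymes. They were taken as every gene whose platform symbol starts with PSMA, PSMB, PSMC, PSMD, PSME, PSMF, PSMG or UBE2, other than UBE2C, with 1 probe set per gene. This gave 65 of the 9155 named genes on the array, 40 of them proteasome genes and 25 of them E2 enzymes. The immunoproteasome genes PSMB8, PSMB9, PSMB10, PSME1 and PSME2 were compared with the other 60. PSME3 and UBE2M were not analysed here, and PSME3IP1, a protein that binds PSME3 and is no subunit, entered through its prefix.

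RNA was measured in the corpus luteum, the progesterone gland that an ovulated follicle turns into. The 30 animals were Angus crossbred heifers, in 6 groups of 5. Heifers received prostaglandin F2α (PGF2α) or saline on day 4 of the estrous cycle, when the gland is young, or on day 11, at mid cycle. The day 4, 0 h and day 11, 0 h groups are the saline controls, and the day 4, 4 h, day 4, 24 h, day 11, 4 h and day 11, 24 h groups were collected that long after PGF2α. There was no saline group at 4 or 24 h. PGF2α makes the mid-cycle gland regress, while the early gland survives it, and the comparison of the days asks how the transcriptomes of the 2 stages respond. All values are log2 signals, differences are in log2 units with their standard error, and array values are listed in the order of replicates 1 to 5. A gene was called changed where limma gave an adjusted p under 0.05 over all 24016 probe sets.

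Proteins to be destroyed are tagged with ubiquitin by a cascade of E1, E2 and E3 enzymes, in which the E2 carries the activated ubiquitin and often sets the kind of chain that is built. The 26S proteasome reads the chain: its 19S cap unfolds the protein with a ring of ATPases and feeds it into the 20S barrel, whose PSMB5, PSMB6 and PSMB7 subunits cut it. Interferon and inflammatory signals replace these with PSMB8, PSMB9 and PSMB10 and induce the PSME1-PSME2 cap, giving the immunoproteasome, which makes peptides for presentation by major histocompatibility complex class I.

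Array medians lay between 6.01 and 6.16, and arrays of 1 group correlated at 0.978 to 0.994. The 3 prime minus 5 prime difference of the ef1a control probe sets was -2.459 to -1.401 at day 11, 4 h and -2.263 to -2.102 at day 11, 0 h. For gapd it was 0.09 to 0.607 and 0.221 to 0.503, and for actin 2.038 to 2.4 and 1.921 to 2.394. Replicate 1 of day 11, 4 h had the lowest array weight, 0.318. The mean over 8 genes that define steroidogenic luteal cells was high, at 11.52 to 12.25 in all groups but day 11, 24 h, where it was 10.59 to 11.26. Of the 8, LHCGR was dim, with group means of 5.67 to 7.92. Leukocyte genes differed with the groups: the mean of 6 such genes was 6.30 to 7.02 at day 4, 0 h, 7.13 to 7.48 at day 11, 0 h and 9.03 to 9.76 at day 11, 24 h. In pieces of whole tissue, fewer cells of a type and less RNA per cell cannot be told apart. Replicate 1 of day 4, 24 h lay at the level of the controls in genes of dividing cells (8.90, against 8.83 to 9.13 at day 4, 0 h), and replicates 1 and 4 of day 11, 4 h stood apart in several members.

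RNA of most constitutive proteasome subunits was lower in the mid-cycle than in the early gland. Comparing the controls, 51 of the 65 members were called, 7 higher and 44 lower on day 11, while 33.8% of all probe sets and 44.5% of named genes were called. Of the 26 subunits of the 20S barrel and 19S cap other than the inducible ones, 0 were higher and 24 lower, with a median difference of -0.48, against -0.02 over all named genes. Among named genes 26.5% were called lower. All 26 differences in the core were negative in the probe sets used. The second probe sets of PSMB2, PSMC2 and PSMC5 were called lower too. Those of PSMD6 (0.04 ± 0.13), PSMC6 (-0.17 ± 0.08) and PSMD4 (-0.10 ± 0.09) were not called. The groups did not overlap for 23 of these 26 genes, all lower on day 11, and for 20.4% of named genes in that direction. The exceptions to the call were PSMA3 (-0.14) of the alpha ring and PSMD4 (-0.07), a ubiquitin receptor of the cap.

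**Figure D1:**
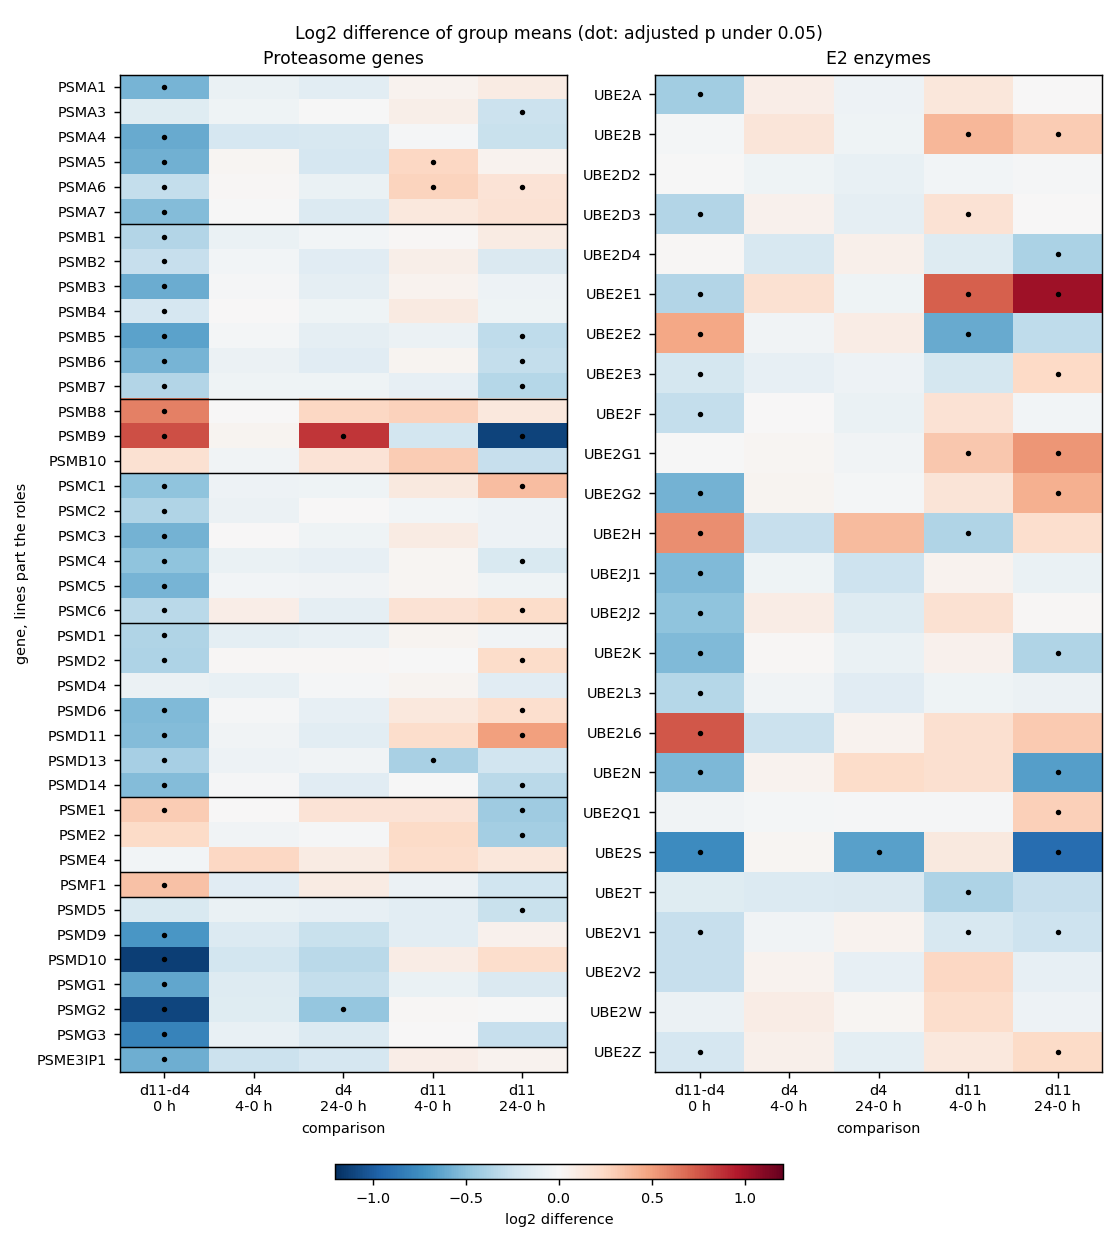
Log2 difference of group means (color) for the 40 proteasome genes by role (left) and the 25 E2 enzymes (right) in 5 comparisons (columns), with a dot where the adjusted p was under 0.05. The first column is mostly blue on the left, 30 of 40 proteasome genes being lower on day 11, with PSMB8 and PSMB9 red; the second column holds no dot.

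The 3 catalytic subunits of the constitutive barrel were among them. PSMB5, with chymotrypsin-like activity, read 11.47, 11.46, 11.56, 11.62 and 11.54 at day 4, 0 h and 10.77, 11.11, 10.97, 10.74 and 10.85 at day 11, 0 h. Every day 11 control lay below every day 4 control, a difference of -0.64 ± 0.08 (adjusted p = 6.5e-07, 1.56-fold lower). PSMB6, with caspase-like activity, differed by -0.56 ± 0.07 (adjusted p = 8.9e-07) and PSMB7, with trypsin-like activity, by -0.35 ± 0.07 (adjusted p = 0.0002), again without overlap. The other roles moved alike: 5 of 6 alpha subunits, all 7 standard beta subunits, all 6 ATPases and 6 of 7 other cap subunits were lower, with medians of -0.54, -0.36, -0.48 and -0.40. PSMD13 of the cap kept its sign but lost its call without day 4, 0 h replicate 3 (-0.37, adjusted p = 0.0521).

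Assembly factors differed most. These chaperones bring subunits together and are not part of the finished particle; 5 of 6 were lower on day 11, with a median of -0.75. PSMD10 (gankyrin), a chaperone of the 19S ATPase ring, read 9.03, 9.04, 9.26, 8.86 and 8.91 at day 4, 0 h and 7.62, 8.09, 7.88, 7.96 and 7.89 at day 11, 0 h. The groups were far apart, at -1.13 ± 0.12 (adjusted p = 7.5e-08, 2.19-fold lower). PSMG2, which with PSMG1 starts the alpha ring, read 10.71, 10.65, 10.83, 10.84 and 10.71 on day 4 and 9.57, 9.84, 9.74, 9.65 and 9.44 on day 11. Its difference was -1.10 ± 0.10 (adjusted p = 5.7e-09), with no overlap. PSMG3 followed at -0.80 ± 0.12, PSMD9 at -0.70 ± 0.09 and PSMG1 at -0.62 ± 0.10, while PSMD5 was not called (-0.18). Genes of dividing cells moved the same way, all 6 of those measured being lower on day 11 with a median of -2.83; their part in the result was not tested.

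PSMF1, which encodes the inhibitor PI31, was higher on day 11 by 0.35 ± 0.13 (adjusted p = 0.033). That call was lost without day 11, 0 h replicate 3 (0.29, adjusted p = 0.0971) or 4 (0.28, adjusted p = 0.108), and without day 4, 0 h replicate 1 (0.30, adjusted p = 0.0895), 2 (0.33, adjusted p = 0.0633) or 3 (0.32, adjusted p = 0.0737).

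The immunoproteasome genes went the other way between the controls. All 5 differences were positive, with a median of 0.31, and 3 were called higher, whereas 17.9% of named genes were called higher. PSMB9 read 9.43, 10.41, 10.46, 10.37 and 10.43 at day 4, 0 h and 10.83, 11.15, 10.84, 11.13 and 10.99 at day 11, 0 h. The groups did not overlap, and the difference was 0.77 ± 0.18 (adjusted p = 0.0012, 1.70-fold higher). Without day 4 replicate 1 the difference was 0.57 and kept its call. That array was also lowest of the day 4 controls for PSMB8, PSME1 and PSME2. PSMB8 read 9.16, 9.50, 9.81, 9.92 and 10.09 on day 4 and 9.98, 10.78, 10.11, 10.54 and 10.09 on day 11. Its groups overlapped at their edges, with a difference of 0.60 ± 0.17 (adjusted p = 0.0055).

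PSME1, a subunit of the PA28 cap, was higher by 0.31 ± 0.10 (adjusted p = 0.021), but 3 single arrays decided the call. It was lost without replicate 1 of the day 4 controls (0.23, adjusted p = 0.0951) and without replicate 2 (0.27, adjusted p = 0.0617) or 4 (0.28, adjusted p = 0.0519) of the day 11 controls. Its partner PSME2 (0.23 ± 0.11, adjusted p = 0.12) and PSMB10 (0.18 ± 0.12, adjusted p = 0.26) were not called. Without replicate 1 of the day 11 controls both were called, PSME2 at 0.31 (adjusted p = 0.0343) and PSMB10 at 0.29 (adjusted p = 0.0478). PSME2 was also called without replicate 5 of the day 4 controls (0.30, adjusted p = 0.043), with array weights (0.31, adjusted p = 0.027) and after quantile normalization (0.29, adjusted p = 0.0367). Leukocyte, macrophage and T and NK cell genes were higher on day 11 in 4 of 6, 5 of 7 and 5 of 9, with 0 lower in each list, while 2 of 3 neutrophil genes, S100A9 and S100A12, were lower; their part in the result was not tested.

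**Figure D2:**
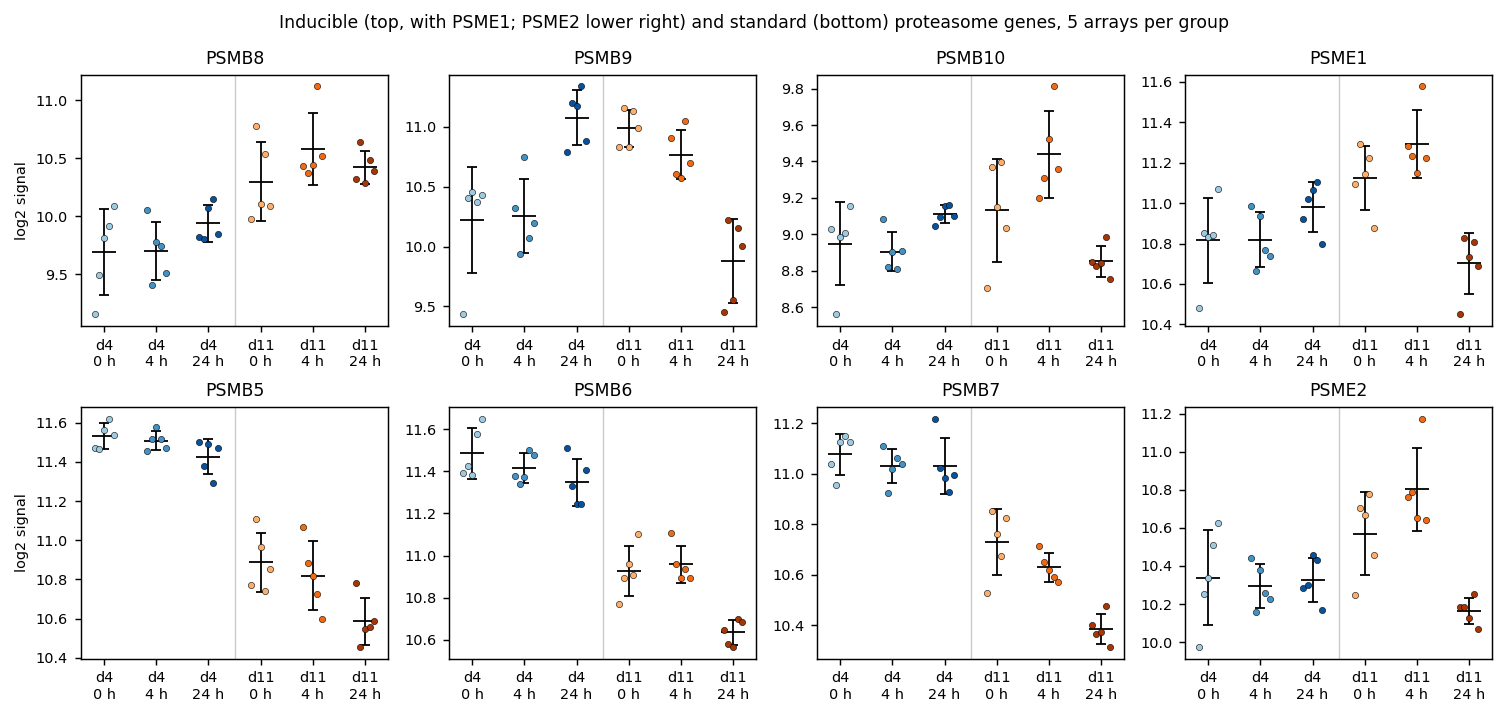
Log2 signal (vertical axis) of the 5 immunoproteasome genes and of PSMB5, PSMB6 and PSMB7 in the 6 groups (horizontal axis). Each point is 1 array, and the bars are the mean and SD of 5 arrays. PSMB9 is highest at day 4, 24 h and lowest at day 11, 24 h, while the 3 standard subunits are lower in every day 11 group than in every day 4 group mean.

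The balance of inducible and standard subunit RNA was also read within each array. It was taken as the signal of an inducible subunit minus that of the standard subunit it replaces. Such a difference says nothing of which protein is more abundant, since probes differ in brightness, but its shift between groups is free of array scaling. Between the controls all 3 pairs shifted toward the inducible subunit: PSMB8 against PSMB5 by 1.25, PSMB9 against PSMB6 by 1.33 and PSMB10 against PSMB7 by 0.53. For PSMB9 against PSMB6, replicate 1 of the day 4 controls read -1.96 and the others -1.22 to -0.93. In each pair no array of one day overlapped the other, and the exact permutation test gave p = 0.0079, the smallest that 5 against 5 arrays allow (adjusted p = 0.0238 over 15 tests). PSMB10 thus shifted against PSMB7 although its own difference was not called.

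Among E2 enzymes, 14 of 25 were lower and 3 higher on day 11, with a median of -0.28. Of named genes 26.5% were called lower and 17.9% higher. UBE2S, which lengthens chains on targets of the anaphase-promoting complex in mitosis, was lowest by difference, at -0.75 ± 0.17 (adjusted p = 0.00068). UBE2G2 and UBE2J1, which serve degradation at the endoplasmic reticulum, were lower by 0.57 ± 0.08 and 0.53 ± 0.11 in the probe sets used. The other UBE2G2 probe set read the opposite (0.54 ± 0.13, adjusted p = 0.0015), so the direction for UBE2G2 is uncertain. UBE2N, which with UBE2V1 or UBE2V2 builds signalling chains that do not lead to the proteasome, was lower by 0.54 ± 0.10 (adjusted p = 0.00012).

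Of the E2 enzymes for ubiquitin-like proteins, UBE2L6, which transfers the interferon-induced modifier ISG15, was higher on day 11. It read 6.25, 6.56, 6.28, 6.89 and 7.14 at day 4, 0 h and 7.44, 7.41, 7.52, 7.56 and 6.93 at day 11, 0 h. All but replicate 5 of day 11 lay above the day 4 arrays, and the difference was 0.75 ± 0.21 (adjusted p = 0.0058); its second probe set gave 0.89 ± 0.25. UBE2F, an E2 for NEDD8, differed by -0.29 ± 0.08 (adjusted p = 0.0048).

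UBE2E2, a dim gene at 5.29 to 6.51 over all arrays, was higher by 0.46 ± 0.17 (adjusted p = 0.037). It lost its call without day 11, 0 h replicate 2 (0.46), 3 (0.39) or 4 (0.37), and without day 4, 0 h replicate 3 (0.42), 4 (0.40) or 5 (0.36). For UBE2H, partner of the CTLH ligase, the 2 probe sets disagreed: the brighter gave 0.56 ± 0.13 and the other -0.76 ± 0.14, both called, so no direction is given for it.

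At 4 h after PGF2α little had moved on day 4. limma called 0 of the 65 members, while it called 4.24% of probe sets and 5.28% of named genes; 5 members had an unadjusted p under 0.05. With array weights 1 member was called, PSME3IP1. The immunoproteasome differences on day 4 lay between -0.05 and 0.04.

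On day 11, 11 members were called at 4 h, 6 higher and 5 lower, in a comparison where 18.4% of probe sets and 23.2% of named genes were called. Of these 11, 8 were E2 enzymes. UBE2E1, of a class of E2 that works with many ligases, rose from 9.78, 9.96, 9.79, 9.97 and 9.70 at 0 h to 10.49, 10.56, 10.59, 10.51 and 10.63 at 4 h. Every 4 h array lay above every control, by 0.72 ± 0.07 (adjusted p = 3.6e-08, 1.64-fold). UBE2B (RAD6B), which ubiquitylates histone H2B and acts in tolerance of DNA damage, rose by 0.40 ± 0.10 and UBE2G1 by 0.33 ± 0.09. The second probe set of UBE2B, dim at a mean of 4.18, was not called (-0.04 ± 0.18). With both probe sets averaged, UBE2B lost its call. UBE2E2, the protein-coding gene next to UBE2E1 in the RefSeq table of assembly ARS-UCD2.0, fell by 0.61 ± 0.17 (adjusted p = 0.012).

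PSMA6 of the alpha ring rose at 4 h on day 11 from 11.69, 11.92, 11.89, 11.79 and 11.82 to 12.14, 12.06, 12.10, 12.08 and 12.08. The groups did not overlap, and the rise was 0.27 ± 0.06 (adjusted p = 0.0016). These 5 calls (UBE2E1, UBE2B, UBE2G1, UBE2E2 and PSMA6) held whichever array of the comparison was left out. The other 6, PSMA5, UBE2D3, PSMD13, UBE2H, UBE2T and UBE2V1, each lost theirs without at least 3 of the 10 arrays, and the second UBE2H probe set rose instead (0.52 ± 0.14). PSMD13 read 8.47, 8.43, 8.48, 8.58 and 8.57 at 0 h and 7.26, 8.37, 8.31, 8.33 and 8.31 at 4 h. Its difference of -0.39 ± 0.14 (adjusted p = 0.042) rests on replicate 1 of the 4 h group, without which it was -0.18 (adjusted p = 0.123).

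No immunoproteasome gene was called at 4 h on day 11 by limma, and 2 of 5 had an unadjusted p under 0.05. PSMB8 differed by 0.28, PSMB10 by 0.31, PSME2 by 0.23, PSME1 by 0.17 and PSMB9 by -0.22. PSMB10 was close to the threshold: it was called without replicate 1 of the 4 h group (0.37, adjusted p = 0.0368) and without control replicate 2 (0.37, adjusted p = 0.0383) or 4 (0.37, adjusted p = 0.0335). Replicate 4 of that group read highest of its group for PSMB8, PSMB9, PSMB10, PSME1 and PSME2, at 11.12, 11.05, 9.81, 11.58 and 11.17. Without it the differences were 0.14, -0.29, 0.21, 0.10 and 0.14 in the same order. ISG15, a modifier that interferon induces, rose at that time by 2.50 ± 0.56 (adjusted p = 0.0018). Replicate 4 was again highest, at 13.24, and the other 4 h arrays read 10.005 to 11.66. The day 11 controls read 7.77 to 10.12, so the groups overlapped. None of the 3 inducible-minus-standard pairs was called at 4 h on either day by the exact permutation test, with adjusted p from 0.0992 to 0.937; 1 of these 6 tests, PSMB10 against PSMB7 on day 11, had p = 0.0397 before adjustment.

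**Figure D3:**
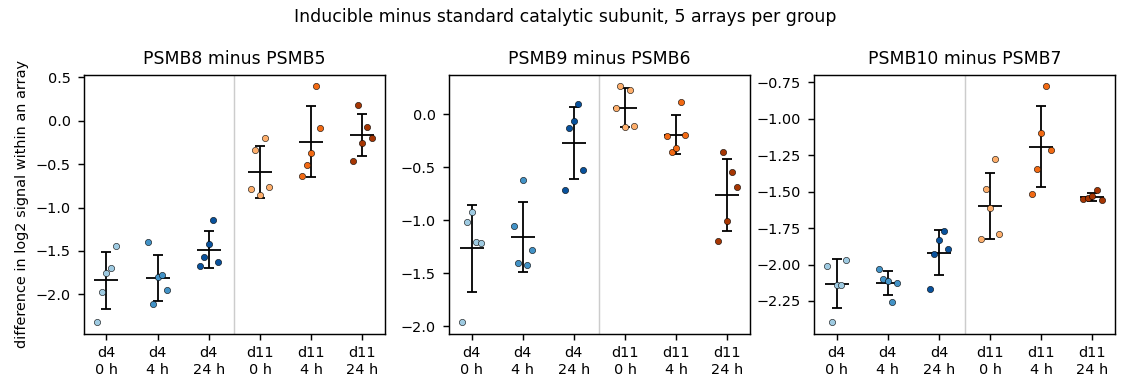
Within-array difference in log2 signal between an inducible subunit and the standard subunit it replaces (vertical axis) in the 6 groups; points are arrays, bars are mean and SD of 5. Day 11 controls lie above day 4 controls in all 3 panels, and PSMB9 minus PSMB6 rises by 1.00 at 24 h on day 4 and falls by 0.82 at 24 h on day 11.

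By 24 h on day 4, 3 of the 65 members were called, PSMB9 higher and PSMG2 and UBE2S lower, against 5.16% of probe sets and 7.76% of named genes. PSMB9 went from the control values given above to 10.79, 11.20, 11.18, 11.34 and 10.88. The lowest treated array lay above the highest control, a rise of 0.86 ± 0.18 (adjusted p = 0.0065, 1.81-fold). It was 0.66 (adjusted p = 0.0213) without the low control, replicate 1 at 9.43, and was not called when only the 10 arrays of the comparison were fitted (adjusted p = 0.0632). PSMB8 (0.25), PSMB10 (0.16), PSME1 (0.17) and PSME2 (-0.01) were not called. Against PSMB6, PSMB9 shifted by 1.00 (exact permutation p = 0.0079, adjusted p = 0.0238), while the shifts of PSMB8 against PSMB5 (0.35) and PSMB10 against PSMB7 (0.21) were not called.

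UBE2S read 10.46, 10.41, 10.64, 10.74 and 10.51 in the day 4 controls and 10.59, 9.62, 9.84, 9.30 and 10.15 at 24 h. Of the treated arrays, 4 lay below every control and replicate 1 lay among them. The fall of 0.65 ± 0.17 (adjusted p = 0.018) was 0.82 without that array (adjusted p = 0.000626). The call was lost without replicate 2 (-0.58) or 4 (-0.50) of the 24 h group and without replicate 3 (-0.63) or 4 (-0.60) of the controls. The mean of 6 genes of dividing cells read 8.90, 6.76, 7.52, 5.69 and 8.11 in the same 5 treated arrays, which is the order of UBE2S, and all 6 fell; their part in the result was not tested.

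PSMG2 fell at 24 h on day 4 to 10.59, 10.35, 10.16, 9.95 and 10.37, all below the lowest control at 10.65. The change was -0.46 ± 0.10 (adjusted p = 0.0078) and -0.54 without replicate 1. The other 5 assembly factors had negative differences that were not called, among them PSMD10 (-0.32) and PSMG1 (-0.29). Of the 26 core subunits limma called 0; 2 had an unadjusted p under 0.05, and the fit with array weights added PSMD9, PSMD10, PSMG1 and UBE2H to the calls but no core subunit. Without replicate 1 the calls rose from 3 to 6, with PSMA5, PSMD9 and PSMG1 added, while the share of all probe sets called rose to 8.62%.

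At 24 h on day 11, when the gland is regressing, 28 members were called, 13 higher and 15 lower, against 29.7% of probe sets and 37.9% of named genes (17.9% higher, 20% lower). Core subunits split evenly, with 6 higher (PSMA6, PSMC1, PSMC6, PSMD2, PSMD6 and PSMD11) and 6 lower (PSMA3, PSMB5, PSMB6, PSMB7, PSMC4 and PSMD14), and a median of -0.06. Among the 6 that fell are all 3 catalytic subunits of the barrel, and PSMD14 is the enzyme of the cap that removes ubiquitin chains; 5 of the 6 that rose belong to the cap. Most rises were small: PSMA6, PSMC6, PSMD2 and PSMD6 changed by 0.16 to 0.22 and each lost its call without 5 or 6 of the 10 arrays, as PSMC4 (-0.19) did without 5. The second probe set of PSMC6 read the opposite (-0.23 ± 0.08, adjusted p = 0.020) and that of PSMD6 was not called (0.02 ± 0.13), so the rises of these 2 genes are uncertain.

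PSMD11, a cap subunit that stabilizes the assembled proteasome, rose most in the core. It read 10.05, 10.38, 10.32, 10.28 and 10.44 at day 11, 0 h and 10.83, 10.59, 10.82, 10.90 and 10.83 at 24 h. All treated arrays lay above all day 11 controls, by 0.49 ± 0.08 (adjusted p = 1.8e-05, 1.41-fold). The day 11 controls had been called lower than the day 4 controls for PSMD11, by 0.52, and the day 4 controls read 10.68 to 11.01. The ATPase gene PSMC1 rose by 0.37 ± 0.09 (adjusted p = 0.0031).

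PSMB7 fell from 10.53, 10.85, 10.76, 10.67 and 10.83 to 10.40, 10.37, 10.37, 10.48 and 10.31. No treated array reached the lowest control, and the change was -0.34 ± 0.07 (adjusted p = 0.00027). PSMB5 fell by 0.30 ± 0.08 and PSMB6 by 0.29 ± 0.07. Of the assembly factors PSMD5 alone was called, at -0.27 ± 0.08 (adjusted p = 0.013). The comparison of the controls shares its arrays with both responses of each day, so a low or high control array moves them in opposite directions on day 11 and in the same direction on day 4.

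Of the immunoproteasome genes, 3 of 5 fell at 24 h on day 11, while 20% of named genes were called lower. PSMB9 went from 10.83, 11.15, 10.84, 11.13 and 10.99 to 9.45, 10.22, 9.56, 10.16 and 10.001. The highest treated array lay below the lowest control, a change of -1.11 ± 0.18 (adjusted p = 1.7e-05, 2.16-fold lower). PSME1 fell from 11.09, 11.29, 11.14, 11.22 and 10.88 to 10.45, 10.83, 10.73, 10.81 and 10.69, without overlap, by 0.42 ± 0.10 (adjusted p = 0.0022). PSME2 fell by 0.41 ± 0.11 (adjusted p = 0.0062).

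PSMB8 did not follow PSMB9: it read 10.32, 10.64, 10.28, 10.49 and 10.39 at 24 h, a difference of 0.12 ± 0.17 that was not called. PSMB10 differed by -0.28 ± 0.12 (adjusted p = 0.076), and was called without control replicate 1 (-0.39, adjusted p = 0.00902) and with array weights (-0.32, adjusted p = 0.0234). Against PSMB6, PSMB9 shifted by -0.82 (exact permutation p = 0.0079, adjusted p = 0.0238), although PSMB6 itself fell. The shifts of PSMB8 against PSMB5 (0.43, adjusted p = 0.104 by the exact test) and PSMB10 against PSMB7 (0.06, adjusted p = 0.675) were not called.

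These falls came in tissue where leukocyte genes had risen. Leukocyte, macrophage and T and NK cell genes rose in 6 of 6, 4 of 7 and 7 of 9, as did 3 of 3 neutrophil genes, with 0 lower, and 7 of 8 steroidogenic genes fell; their part in the result was not tested. In the RefSeq table PSMB8, TAP1 and PSMB9 are consecutive protein-coding genes. TAP1, a subunit of the transporter that carries proteasome peptides to class I molecules, read 9.28, 9.65, 9.46, 9.91 and 9.42 at day 11, 0 h and 8.36, 9.04, 8.56, 9.02 and 8.97 at 24 h. It fell without overlap by 0.75 ± 0.20 (adjusted p = 0.0041), as PSMB9 on one side of it did and PSMB8 on the other did not. PSME2 and PSME1 also lie near each other, with EMC9 between them.

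E2 enzymes held the largest rise. UBE2E1 went on from its 4 h values to 10.91, 10.82, 10.80, 10.92 and 10.82 at 24 h, above every control and every 4 h array. Against the controls the rise was 1.01 ± 0.07 (adjusted p = 2.3e-11, 2.02-fold), and its SD of 0.06 within the 24 h group was small. UBE2G1 rose from 9.31, 9.43, 9.42, 9.28 and 9.59 to 10.03, 10.26, 9.83, 9.76 and 9.80, without overlap, by 0.53 ± 0.09 (adjusted p = 2.6e-05). The 5 others that rose were UBE2B, UBE2E3, UBE2Q1, UBE2Z, which takes its ubiquitin from the E1 enzyme UBA6, and UBE2G2, whose second probe set gave -0.23 and was not called. UBE2B lost its call without control replicate 2 (0.27) or 3 (0.26) or treated replicate 2 (0.28), and UBE2E3 without 4 of the 10 arrays. The dim second probe set of UBE2B was not called (0.19 ± 0.18), and UBE2B lost its call with both averaged. For UBE2H the probe set used was not called at 24 h on day 11, but its second probe set rose by 0.89 ± 0.14 (adjusted p = 6.9e-06). With both averaged UBE2H was called. The 24 h responses of that second probe set differed between days by 1.05 ± 0.19 (adjusted p = 0.00015).

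The E2 enzymes that fell were UBE2S, UBE2N, UBE2D4, UBE2K and UBE2V1. UBE2N went from 8.48, 8.52, 8.32, 8.04 and 8.37 to 7.87, 7.73, 7.81, 7.47 and 7.56. The groups did not overlap, and the change was -0.66 ± 0.10 (adjusted p = 9.1e-06, 1.58-fold lower). Its inactive partner UBE2V1 fell by 0.25 ± 0.07 (adjusted p = 0.0047), while the other partner, UBE2V2, was not called (-0.10 ± 0.12).

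UBE2S fell from 10.28, 9.80, 9.95, 9.63 and 9.35 to 8.84, 8.82, 8.80, 9.01 and 8.94, below every control, by 0.92 ± 0.17 (adjusted p = 7.1e-05). The genes of dividing cells, already low in the day 11 controls, were not called by limma in this comparison. UBE2T, which acts in the Fanconi anaemia repair pathway, was not called at 24 h on either day.

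**Figure D4:**
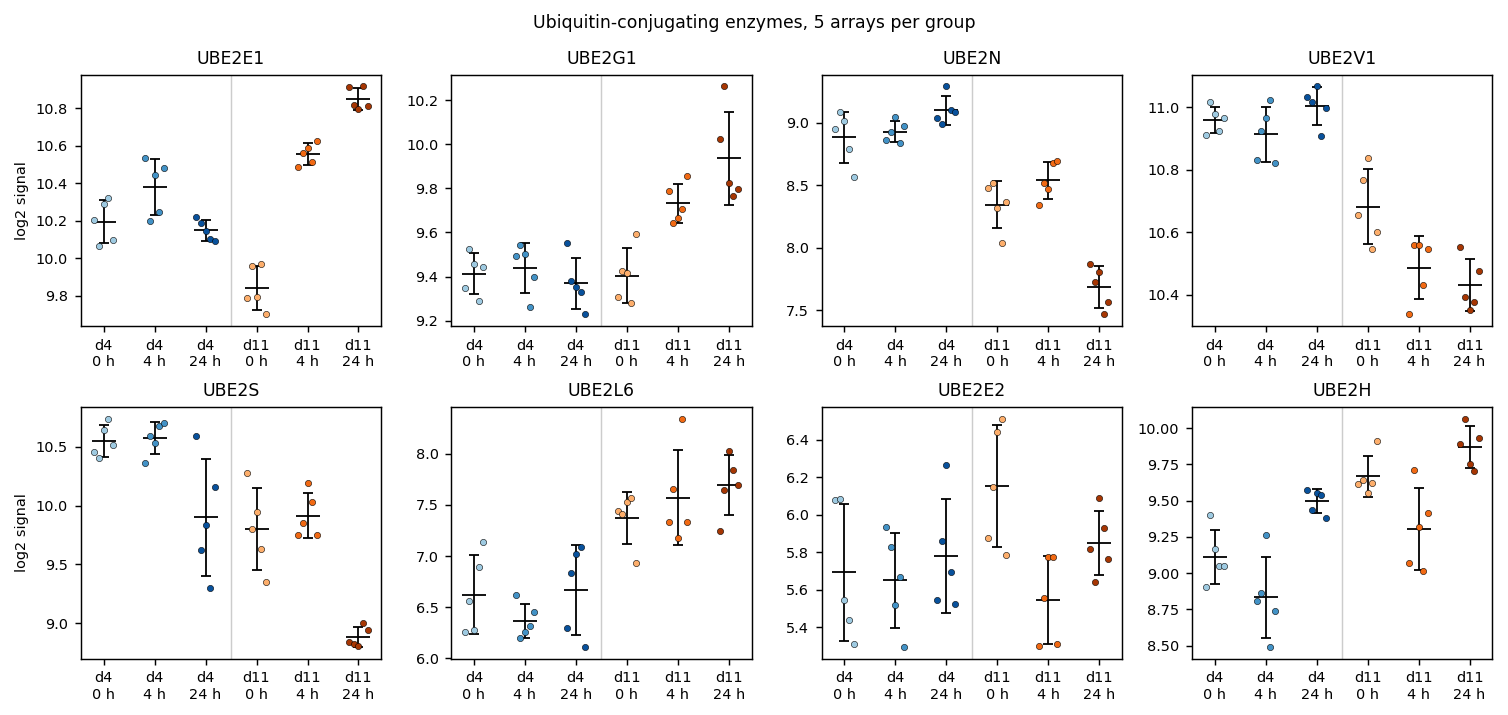
Log2 signal (vertical axis) of 8 E2 enzymes in the 6 groups (horizontal axis); points are arrays, bars are mean and SD of 5. UBE2E1 climbs from 0 to 4 to 24 h on day 11, while its day 4 differences were not called, UBE2N drops at day 11, 24 h, and UBE2S drops at 24 h on both days.

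The responses of the days were then compared directly. At 24 h, 20 members differed between days, 13 with the higher and 7 with the lower response on day 11, against 22.2% of probe sets and 29.8% of named genes. PSMB9 differed most, by -1.97 ± 0.25 (adjusted p = 1.4e-06), having risen on day 4 and fallen on day 11; no other member was called in both responses with opposite signs. PSME1 differed by -0.59 ± 0.15 (adjusted p = 0.0037), while PSMB10 (-0.44, adjusted p = 0.056) and PSME2 (-0.39, adjusted p = 0.078) were not called. PSMB10 was called with the replicate number as a block (adjusted p = 0.0498), after quantile normalization (0.0428), with array weights (0.0127), with the probe sets of each gene averaged (0.0408), without the dimmest 30% of probe sets (0.0433) and without the 3 arrays that stood apart (0.0362). PSME2 was called after quantile normalization (adjusted p = 0.0468) and with array weights (0.0227). Both were called without day 11, 0 h replicate 1 (PSMB10 -0.55, PSME2 -0.48) or day 4, 0 h replicate 5 (PSMB10 -0.50, PSME2 -0.47). UBE2E1 differed by 1.06 ± 0.10 (adjusted p = 2e-08), UBE2N by -0.87 ± 0.14, PSMD11 by 0.62 ± 0.11 and UBE2G1 by 0.57 ± 0.13. For UBE2S the difference of -0.27 ± 0.23 was not called (adjusted p = 0.49).

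At 4 h, UBE2E1 was the one member whose response differed between days (0.53 ± 0.10, adjusted p = 0.0062), where 1.1% of probe sets and 1.4% of named genes were called. Between the controls UBE2E1 had been called lower on day 11, by 0.36, so its day 11 rise began from a lower level. Its day 4 values at 4 h, 10.54, 10.20, 10.44, 10.25 and 10.48, overlapped the day 4 controls at 10.21, 10.07, 10.29, 10.32 and 10.10.

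**Figure D5:**
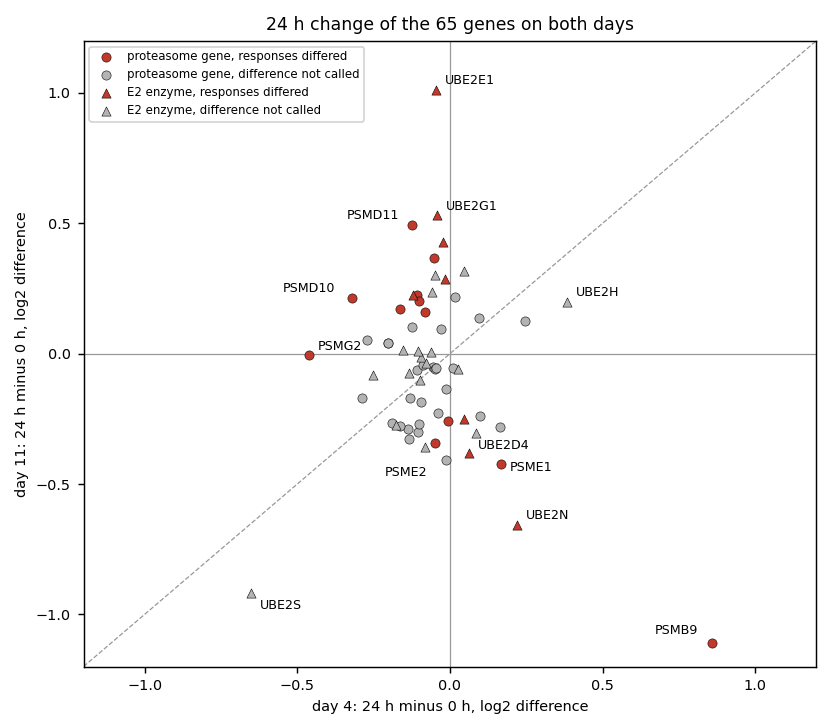
Log2 difference between 24 h and 0 h on day 4 (horizontal axis) and on day 11 (vertical axis) for the 65 members; circles are proteasome genes, triangles E2 enzymes, red where the 2 responses differed at an adjusted p under 0.05, and the dashed line marks equal responses. PSMB9 sits alone at 0.86 and -1.11, UBE2E1 at the top at 1.01, and UBE2S close to the line.

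Over the 6 groups the members differed in which group mean was highest or lowest. These are rankings of means that were not tested, and their share over all named genes was not computed. For all 26 core subunits the highest group mean was on day 4, 19 of them in the controls, and the lowest was on day 11, 15 of them at 24 h. Of the immunoproteasome genes, 4 of 5 peaked at day 11, 4 h, where limma called 0 of 5 against the controls. The lowest mean was at day 11, 24 h for 4 of 5. PSMB9 peaked at day 4, 24 h and PSMB8 was lowest at day 4, 0 h. Among the 25 E2 enzymes, 9 peaked at day 4, 4 h, where limma called 0 of them against the controls. Another 6 peaked at day 11, 24 h, and 10 were lowest at day 11, 24 h. The median SD within a group ranged from 0.035 to 0.338 over members, with 0.111 for the middle one.

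Other genes of the pathway, outside the prefixes, were measured for 24 of 39 listed. In the controls 3 were higher and 12 lower on day 11, with a median of -0.20, while 17.9% of named genes were higher and 26.5% lower. Lower by most were UBA2 (-0.86 ± 0.13) and SAE1 (-0.59 ± 0.10), the E1 for the modifier SUMO, and UBA1, the main ubiquitin E1, was lower by 0.42 ± 0.08. Both measured transcription factors of proteasome genes were higher, NFE2L1, which raises subunit genes when proteasome activity is low, by 0.96 ± 0.09 (adjusted p = 1.5e-08) and NFE2L2 by 0.44 ± 0.12.

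At 4 h on day 4 PAAF1 fell (-0.30 ± 0.09), 1 of the 24 genes, where 5.28% of named genes were called. On day 11 PAAF1 (-0.38 ± 0.09), SAE1, CDC34 and UBA3 fell, 4 of the 24, where 23.2% of named genes were called. The day 11 call of SAE1 (-0.29) was lost without 4 h replicate 1 or 5 or control replicate 3, 4 or 5. The day 4 call of PAAF1 was lost without any 1 of 7 of the 10 arrays. At 24 h on day 4, 1 of the 24 was called higher and 2 lower, where 7.76% of named genes were called. NFE2L1 rose by 0.40 ± 0.09 and UBA2 and SAE1 fell by 0.43 ± 0.13 and 0.34 ± 0.10. Without replicate 2 or 4 of the 24 h group all 3 calls were lost, NFE2L1 reading 0.36 or 0.37, UBA2 -0.42 or -0.31 and SAE1 -0.30 in both. The call of UBA2 was also lost without control replicate 1, 3 or 4, and that of SAE1 without control replicate 2, 3 or 4. At 24 h on day 11, 2 of the 24 were called higher and 4 lower, against 17.9% and 20% of named genes. NFE2L2 (0.40 ± 0.12) and UBA1 (0.29 ± 0.08) rose. The 4 that fell were led by TXNL1, a protein bound to the cap (-0.55 ± 0.08), and SAE1 (-0.37 ± 0.10). NFE2L1 fell by 0.28 ± 0.09, a call lost without control replicate 3, 4 or 5 or treated replicate 3 or 4 (-0.25 to -0.26). Its responses differed between days (-0.68 ± 0.13, adjusted p = 0.00033).

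Of 18 listed genes of antigen processing and interferon, 13 were measured. In the day 11 controls 17.9% of named genes were called higher and 26.5% lower. Of the 13, 4 were higher and 0 lower there. These were BOLA (2.29 ± 0.69), TAP1 (1.20 ± 0.20), ERAP1, which trims peptides (1.10 ± 0.27), and B2M, the light chain of class I (1.02 ± 0.13). For BOLA, 1 day 4 control, replicate 1, read 6.16 and the other 4 read 10.86 to 12.31. Without it the difference was 1.17 (adjusted p = 0.0161). The same array was lowest of the day 4 controls for TAP1 (7.495, others 8.44 to 8.75). At 24 h on day 11, 1 of the 13 was called higher and 1 lower, against 17.9% and 20% of named genes. IFNGR2, a chain of the interferon gamma receptor, rose by 0.92 ± 0.09 and TAP1 fell. For TAP1 the 24 h responses of the days differed by -1.39 ± 0.28 (adjusted p = 0.00047), as they did for PSMB9.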

How the data were processed

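Total RNA was labelled as biotin-cRNA and hybridized to the Affymetrix Bovine Genome Array, 1 array per heifer. The authors deposited 1 log2 signal for each probe set and array, made with RMA, per the submitters' processing notes; its version is not given in the sources used here. Values were used as deposited. Of 24128 probe sets, 112 controls were left out; 13292 had 1 platform symbol, 86 several and 10638 none. Where a gene had several probe sets, the one brightest on average in all 30 arrays stood for it. All 65 Entrez identifiers matched the RefSeq gene table with the same symbol.

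A mean per group was fitted to all 30 arrays in limma 3.58.1 (R 4.3.3) with default moderation (28.2 degrees of freedom). The 7 contrasts were the stages at 0 h, 4 h and 24 h against 0 h on each day, and the differences of the responses. P values were adjusted by Benjamini-Hochberg over 24016 probe sets. Pairs were tested by exact two-sided permutation, adjusted over 15 tests. The scripts were tested on simulated data. Precision is limited by 5 arrays per group.

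The members, lists and alternatives were chosen with earlier results of these data known. Named with values were the immunoproteasome genes and their standard counterparts, the 4 largest called rises and falls per contrast (for differences of responses, the 4 largest), UBE2F, UBE2L6, UBE2S and UBE2T, and the 2 largest called changes each way per list. The others named (among them PSMA3, PSMA5, PSMC1, PSMC4, PSMC6, PSMD2, PSMD6, PSMD14, PSMF1, PSMG1, UBE2D3, UBE2D4, UBE2E3, UBE2K, UBE2Q1, UBE2V1, UBE2V2, UBE2Z and TAP1's array values) were chosen after their values were seen. Alternatives changed the normalization, the filter on dim probe sets, the probe sets of a gene, the moderation, array weights, the arrays in the fit, the threshold and the replicate block, and left out single arrays. The order of neighbouring genes was read from the RefSeq gene table of assembly ARS-UCD2.0; coordinates and probe sequences are not reported.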

Additional observations from a re-analysis of the deposited data

Results flagged for a closer look

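In 11 of 264 combinations of a named member and a group, 1 of the 5 arrays lay far from the other 4 by Dixon's test; chance gives about 1 in 20. In the day 11, 4 h group replicate 4 was high for PSMB8 (11.12, others 10.38 to 10.52) and PSME2 (11.17, others 10.64 to 10.79). Replicate 1 of that group was low for PSMD13 (7.26, others 8.31 to 8.37) and high for PSMA3 (11.53, others 11.31 to 11.36). In the day 4 controls replicate 1 was low for PSMB9 (9.43, others 10.37 to 10.46). In the day 11 controls replicate 5 was low for UBE2L6 (6.93, others 7.41 to 7.56) and high for UBE2H (9.91, others 9.55 to 9.64). Replicate 2 of day 11, 24 h was low for PSMD11 (10.59, others 10.82 to 10.90) and PSMA5 (10.38, others 10.58 to 10.62). Replicate 2 of day 4, 24 h was low for PSMD2 (10.80, others 10.99 to 11.03) and high for UBE2T (8.22, others 7.94 to 7.99).

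The test of the difference between days picked out 1 member at 4 h, UBE2E1 (0.53), and 20 at 24 h. Higher on day 11 were the 24 h responses of UBE2E1 (1.06), PSMD11 (0.62), UBE2G1 (0.57), PSMD10 (0.54), PSMG2 (0.45), UBE2G2 (0.45), PSMC1 (0.42), UBE2Z (0.34), PSMA7 (0.33), PSMC6 (0.33), PSMD6 (0.30), UBE2Q1 (0.30) and PSMA6 (0.24). Lower were those of PSMB9 (-1.97), UBE2N (-0.87), PSME1 (-0.59), UBE2D4 (-0.44), UBE2V1 (-0.30), PSMB7 (-0.29) and PSMA3 (-0.25). Of these 20, 12 kept their call whichever array was left out; PSMA3, PSMA6, PSMB7, PSMC6, PSMD6, PSMD10, UBE2Q1 and UBE2V1 did not. The second probe sets of UBE2G2 (-0.39), PSMC6 (-0.04) and PSMD6 (-0.07) had the opposite sign, none of them called. With the probe sets of a gene averaged, UBE2G2, PSMC6, PSMD6 and UBE2D4 lost this call.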

How the results depend on the processing

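Counts of members called stayed within 1.5 times under most alternatives. Exceptions were array weights (1 at 4 h and 7 at 24 h on day 4, 7 at 4 h on day 11), fitting only the arrays of the comparison (0 at 24 h on day 4 and 3 at 4 h on day 11), the 0.01 threshold (4 at 4 h on day 11 and 8 for the difference of the 24 h responses), and leaving out the 3 arrays that stood apart, chosen after seeing the data (8 at 24 h on day 4). With single arrays left out, calls ranged from 47 to 52 between the controls, 0 to 0 at 4 h and 2 to 6 at 24 h on day 4 (6 without day 4, 24 h replicate 1), 7 to 11 at 4 h (7 without day 11, 0 h replicate 5) and 24 to 27 at 24 h on day 11, and 1 to 1 and 16 to 21 for the differences of the 4 h and 24 h responses. Pairs called at 24 h on day 4 ranged from 1 to 2. Averaging the probe sets of a gene turned UBE2H between the controls (-0.10) and at 4 h on day 11 (0.0801) and PSMC6 at 24 h on day 11 (-0.0027), since their probe sets disagree; other causes were not tested. Arrays of different groups with the same replicate number correlated little in their deviations (median 0.049, against -0.015 for other numbers). The correlation was over 0.1 in 24 of 75 pairs with the same number and 48 of 300 with other numbers, so a weak effect of the number is possible. With the replicate number as a block 51, 0, 4, 12, 28, 1 and 23 members were called in the 7 contrasts. Without the block the counts were 51, 0, 3, 11, 28, 1 and 20, and none of these calls was lost with it.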
